A study of Mus musculus with 4 samples.

Results

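Vascular growth factors and their receptors were examined in differentiated 3T3-F442A adipocytes, a mouse preadipocyte line that turns into fat cells in culture. Members were all probe sets, the groups of short array probes that read 1 transcript, whose platform annotation names exactly 1 gene, that gene being Vegfa, Vegfb, Vegfc, Flt1, Kdr, Nrp1, Angpt1 or Angpt2. The rule gave 13 probe sets for the 8 genes, of 22626 probe sets in all. The rule reads no measured value, but the genes were chosen with earlier results of these data known. The 2 arrays labelled shTRPV4 carried a short hairpin RNA aimed at the calcium-permeable channel gene Trpv4, and the 2 arrays labelled shGFP a control hairpin. Both groups had been infected as preadipocytes with a retrovirus, kept under puromycin (2 ug/ml) for 2 days, and differentiated over 8 days in 850 nM insulin, in the first 2 days together with rosiglitazone, which activates PPAR gamma. The cells of a group are a stably infected line, and the labels name 1 hairpin per target. The labels do not say whether the 2 arrays of a group came from separate infections or cultures, so p-values reflect no more than the spread among these 4 arrays, possibly a technical one.

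VEGF-A is the main growth factor of blood capillaries and is secreted by fat cells, whose tissue grows together with its vessels. It binds the receptor kinases Flt1 and Kdr, with neuropilin Nrp1 as a coreceptor, while VEGF-B binds Flt1 and VEGF-C acts mainly on lymphatic vessels through Flt4 and Kdr. The angiopoietins are ligands of the receptor kinase Tek: Angpt1 activates it, and Angpt2 acts as an antagonist or a partial agonist depending on the setting.

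Of the 13 probe sets, 7 were higher and 1 was lower in the arrays labelled shTRPV4, and 5 did not pass. Those that rose read Vegfa, Vegfb, Flt1, Nrp1 (all 3 of its probe sets) and Angpt2, by 1.50-fold to 1.83-fold. The 3 of Nrp1 cite the same transcript record and are not independent, and the 8 called probe sets read 6 of the 8 genes. The one that fell read Vegfc, at 2.71-fold lower. The limma test, adjusted over all probe sets by the Benjamini-Hochberg method at a threshold of 0.05, called 9.9% of all 22626 probe sets, 4.54% as higher and 5.36% as lower. The median difference was 0.63 over the members and 0.015 over all probe sets, both as log2(intensity + 16) of quantile-normalized arrays, the scale of every difference and fold change here. On it, dim probe sets show less than their true change. The calls rest on all 4 arrays. With any 1 array left out, 1 group holds a single array and the fit has 1 residual degree of freedom, too few for a call on any probe set, member or not. The groups did not overlap for any called member, so the signs could hardly change in those fits. The difference of Vegfc ran from −1.529 to −1.339 there, and that of Angpt2 from 0.689 to 1.055. With an offset of 1 in place of 16, the 7 higher calls were lost (limma adjusted p from 0.052 to 0.091), and that of Vegfc held (limma adjusted p = 0.0468). An exact permutation test of 2 arrays against 2 cannot go below p = 0.333.

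**Figure D1:**
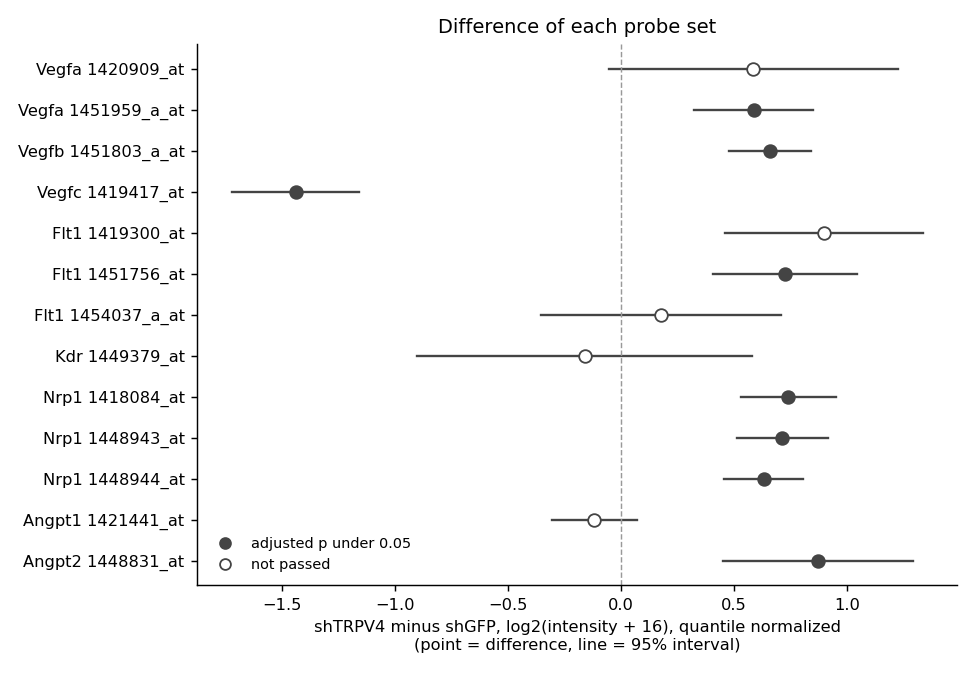
Difference of each of the 13 probe sets, shTRPV4 minus shGFP, as quantile-normalized log2(intensity + 16) (horizontal axis), with its 95% interval from limma as a line; filled points have an adjusted p under 0.05. The 7 filled points right of 0 read Vegfa, Vegfb, Flt1, Nrp1 and Angpt2, and the single filled point left of 0 is Vegfc at −1.44.

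Trpv4 itself read 80.1 and 79.5 in the arrays labelled shTRPV4, against 43.7 and 93.8 in the arrays labelled shGFP. The groups overlapped on this probe set (difference 0.32, 95% interval −0.55 to 1.19, limma adjusted p = 0.55), so it gave no check of the labels. The median intensity per array ran from 129.4 to 132.8 in the arrays labelled shTRPV4 and from 138.6 to 144.0 in the arrays labelled shGFP. Without detection calls, the background level of the arrays is not known. The split of calls over all probe sets, 1027 higher and 1213 lower, depended on scaling: without normalization it was 600 and 1161, and after median centring 1662 and 1141. The fat cell markers Adipoq, which encodes adiponectin, at 13294 and 14169 in the arrays labelled shTRPV4 against 11785 and 11816 in the arrays labelled shGFP, and Fabp4, at 19142 and 19625 in the arrays labelled shTRPV4 against 18222 and 18099 in the arrays labelled shGFP, were bright in both groups.

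Among the ligands, the 3 VEGF genes did not move in 1 direction: Vegfb rose, Vegfa rose on the dimmer of its probe sets, and Vegfc fell. The brighter Vegfa probe set did not pass. To show how their promoters compare, the 250 bases before the annotated transcription starts of the 3 ligands follow, from RefSeq (GRCm38.p6, 5′ to 3′ on the gene's strand). Capitals mark ACGTG, the core of the hypoxia response element, or GGGCGG, the GC box bound by Sp1 family factors, on either strand (so CACGT and CCGCCC are also marked, and overlapping matches run together). For Vegfa the table holds a second, more downstream start, of which 100 bases that hold its ACGTG match are shown.
Vegfa, upstream start, chr17:46032378-46032627, minus strand: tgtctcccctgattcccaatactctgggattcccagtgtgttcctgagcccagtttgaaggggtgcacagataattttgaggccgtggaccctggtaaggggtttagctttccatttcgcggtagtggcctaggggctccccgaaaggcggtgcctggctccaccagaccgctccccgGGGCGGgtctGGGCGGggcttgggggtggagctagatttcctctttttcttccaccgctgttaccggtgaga
Vegfa, downstream start, chr17:46025314-46025413, minus strand: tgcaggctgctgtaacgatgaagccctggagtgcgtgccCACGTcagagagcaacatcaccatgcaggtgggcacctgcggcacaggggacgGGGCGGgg
Vegfb, chr19:6987652-6987901, minus strand: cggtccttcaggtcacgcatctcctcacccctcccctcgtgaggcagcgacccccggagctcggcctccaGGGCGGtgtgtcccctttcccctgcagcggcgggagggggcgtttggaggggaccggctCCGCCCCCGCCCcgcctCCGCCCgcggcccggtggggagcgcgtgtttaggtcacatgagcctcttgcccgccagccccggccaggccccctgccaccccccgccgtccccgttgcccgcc
Vegfc, chr8:54077282-54077531, plus strand: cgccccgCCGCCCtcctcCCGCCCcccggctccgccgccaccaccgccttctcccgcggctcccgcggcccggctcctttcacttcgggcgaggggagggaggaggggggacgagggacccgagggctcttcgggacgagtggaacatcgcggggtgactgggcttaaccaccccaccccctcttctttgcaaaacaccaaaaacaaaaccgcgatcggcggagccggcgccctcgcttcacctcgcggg

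Promoter windows of 300 bases (250 before and 50 after a start) were held for 6 of the 8 genes, 7 windows in all. GGGCGG was found in all 7 of them, including that of Vegfc, against 35.7% of all 32851 windows in the table. The member windows were also richer in G and C, at 59.3% to 75.3% against a median of 52.7% over all windows. ACGTG was found in 1 of the 7, at the downstream Vegfa start, where it begins 211 bases before it, against 19.6% of all windows. That window lies downstream of the other Vegfa start, so its match can lie in transcribed, coding sequence and need not be a promoter element. Bases further upstream than these windows were not searched. These letters are a description of the windows and mark no measured binding, and GGGCGG was chosen after the sequences were seen.

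Vegfa was read by a pair of probe sets with nearly the same difference. On 1451959_a_at, Vegfa read 612.5 and 628.5 in the arrays labelled shTRPV4, against 385.9 and 467.5 in the arrays labelled shGFP. The groups did not overlap, and Vegfa rose 1.50-fold on this probe set (0.59, SE 0.09, limma adjusted p = 0.044). The other, 1420909_at, read 3010 and 3248 in the arrays labelled shTRPV4, against 1688 and 2619 in the arrays labelled shGFP. Here too both arrays labelled shTRPV4 lay above both others, but the arrays labelled shGFP stood far apart, and the difference of 0.58 did not pass (SE 0.23, 95% interval −0.05 to 1.22, limma adjusted p = 0.19). On that probe set the difference was 0.29 without replicate 1 of shGFP and 0.89 without replicate 2 of shGFP. The call on 1451959_a_at was lost with the values as deposited (0.53, limma adjusted p = 0.077).

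Vegfb, whose product binds Flt1 and Nrp1, read 780.3 and 834.1 in the arrays labelled shTRPV4, against 500.5 and 543.4 in the arrays labelled shGFP. The groups were clearly apart, and Vegfb rose 1.58-fold on its single probe set 1451803_a_at (0.66, SE 0.06, limma adjusted p = 0.023).

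Vegfc had the largest absolute difference of the 13 member probe sets. On 1419417_at it read 255.3 and 229.7 in the arrays labelled shTRPV4, against 667.3 and 753.7 in the arrays labelled shGFP. Both arrays labelled shTRPV4 were well under both others, and Vegfc fell 2.71-fold (−1.44, SE 0.10, 95% interval −1.72 to −1.16, limma adjusted p = 0.017). Of all probe sets, 0.756% had a larger absolute difference. Among 10418 probe sets of other single genes above the median level, the 3 with the pattern most like that of Vegfc over the 4 arrays read Bmp1, a procollagen-cleaving protease, Mfap5, a microfibril-associated glycoprotein, and Cdh11, a cadherin of mesenchymal cells. Likeness was the Euclidean distance between centred log2 values, which was 0.0653 for Bmp1, 0.0961 for Mfap5 and 0.101 for Cdh11, a description over 4 arrays. Their differences, close to that of Vegfc by this choice, were −1.40, −1.36 and −1.48 in that order.

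**Figure D2:**
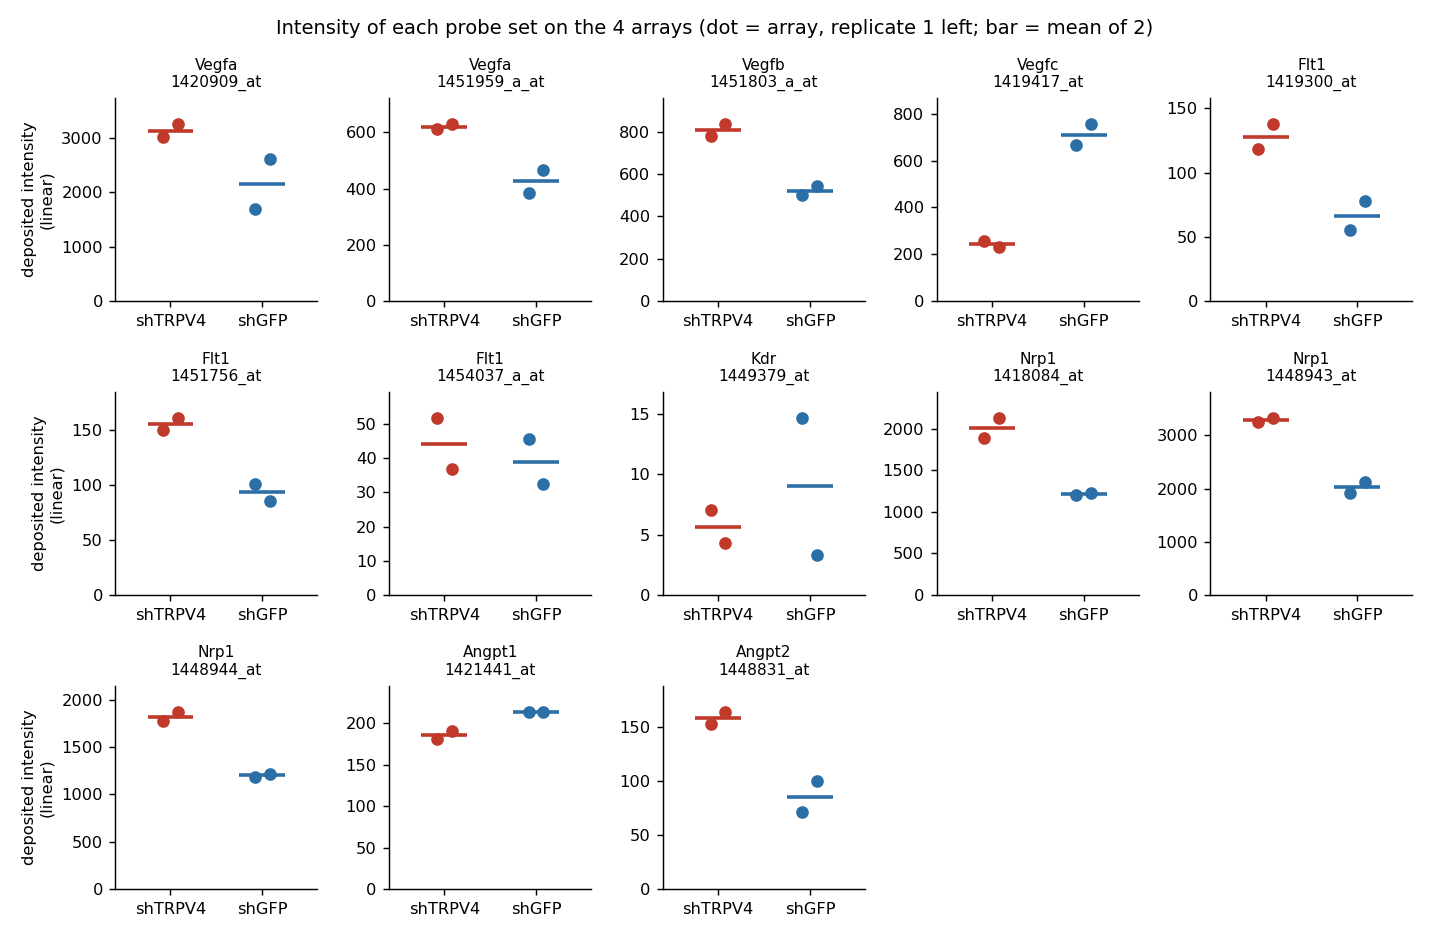
Deposited linear intensity (vertical axis, starting at 0, with its own scale in each panel) of each of the 13 probe sets on the 2 arrays labelled shTRPV4 (left of each panel) and the 2 labelled shGFP (right); dots are arrays and bars are means. The groups do not overlap in 11 panels, and overlap for Flt1 1454037_a_at and Kdr.

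The receptor gene Nrp1 rose, Flt1 rose on the brightest of its probe sets, and Kdr was too dim to compare. Nrp1, the neuropilin coreceptor of VEGF and of class 3 semaphorins, was measured by 3 bright probe sets that all passed. On 1448943_at it read 3256 and 3318 in the arrays labelled shTRPV4, against 1914 and 2129 in the arrays labelled shGFP. On 1418084_at the values were 1881 and 2124 in the arrays labelled shTRPV4, against 1207 and 1232 in the arrays labelled shGFP. On 1448944_at they were 1775 and 1872 in the arrays labelled shTRPV4, against 1187 and 1215 in the arrays labelled shGFP. The groups were apart on each, with differences of 0.71 (SE 0.07), 0.74 (SE 0.07) and 0.63 (SE 0.06) in that order and limma adjusted p-values from 0.023 to 0.024. The 3 probe sets cite the same transcript record and are not independent measures of Nrp1.

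Flt1, the receptor of VEGF-A and VEGF-B that also has a soluble form, had 3 probe sets, all under the median level of the array. On 1451756_at it read 150.4 and 161.0 in the arrays labelled shTRPV4, against 101.6 and 85.5 in the arrays labelled shGFP. The groups were apart and Flt1 rose on this probe set (0.72, SE 0.11, limma adjusted p = 0.043). On 1419300_at it read 118.5 and 137.6 in the arrays labelled shTRPV4, against 55.2 and 78.2 in the arrays labelled shGFP. The groups were again apart, with a larger difference that lay just outside the threshold (0.90, SE 0.15, 95% interval 0.46 to 1.33, limma adjusted p = 0.0504). On 1454037_a_at, the dimmest, it read 51.6 and 36.7 in the arrays labelled shTRPV4, against 45.6 and 32.3 in the arrays labelled shGFP. These overlapped (0.18, 95% interval −0.35 to 0.71, limma adjusted p = 0.59). The difference between Flt1 probe sets was not tested, and the annotation does not say which of them read the soluble form.

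Kdr, the main signalling receptor of VEGF-A on endothelial cells, read 6.99 and 4.31 in the arrays labelled shTRPV4, against 14.6 and 3.34 in the arrays labelled shGFP. All 4 values lay below the offset of 16 and overlapped, and the probe set was at the 9.58th percentile of level (difference −0.16, 95% interval −0.90 to 0.58, limma adjusted p = 0.73).

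Of the angiopoietins, Angpt2 rose and Angpt1 did not pass. Angpt2 read 152.6 and 163.9 in the arrays labelled shTRPV4, against 70.9 and 100.3 in the arrays labelled shGFP. The groups did not overlap, and Angpt2 rose 1.83-fold (0.87, SE 0.15, limma adjusted p = 0.04999), just inside the threshold. The call was lost with the values as deposited (0.79, limma adjusted p = 0.070). Angpt1 read 181.7 and 191.3 in the arrays labelled shTRPV4, against 213.7 and 213.4 in the arrays labelled shGFP. Both arrays labelled shTRPV4 were slightly lower, and the difference of −0.12 did not pass (95% interval −0.30 to 0.07, limma adjusted p = 0.32). Deposited intensities of the groups did not overlap for 11 of the 13 members, 9 higher and 2 lower, while 56.5% of all probe sets did not overlap, 26.2% higher and 30.3% lower.

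Other genes of the VEGF, angiopoietin and neuropilin pathway were called about as often as all genes. Of 28 measured, 1 rose and 2 fell, against 11.4% of 12393 genes called in all (5.36% higher and 6.02% lower, with 1 probe set per gene, the brightest). The list median was 0.09, against 0.02 over all genes. Nrp2, the neuropilin that pairs with VEGF-C receptors, read 179.4 and 180.8 in the arrays labelled shTRPV4, against 428.9 and 518.9 in the arrays labelled shGFP. Nrp2 was thus far lower in both arrays labelled shTRPV4 (−1.25, SE 0.09, limma adjusted p = 0.017), in the opposite direction to Nrp1. Svep1, a large matrix protein of lymphatic vessel development, also fell (−0.72, SE 0.06, limma adjusted p = 0.021). Angpt4, a further ligand of Tek, rose, with 298.6 and 317.5 in the arrays labelled shTRPV4 against 166.8 and 159.5 in the arrays labelled shGFP (0.92, SE 0.08, limma adjusted p = 0.020).

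The remaining VEGF ligands and receptors of the pathway did not pass. Vegfd, the other lymphatic ligand, read 1584 and 1490 in the arrays labelled shTRPV4, against 1021 and 1257 in the arrays labelled shGFP (0.46, 95% interval 0.13 to 0.79, limma adjusted p = 0.093). Its values were higher in both arrays labelled shTRPV4. The other Vegfd probe sets differed by 0.41 and 0.15 and did not pass (limma adjusted p = 0.086 and 0.22). Pgf, the placental growth factor that binds Flt1, had a difference of 0.34 (limma adjusted p = 0.15). Flt4, the main VEGF-C receptor, averaged 29.9 in the arrays labelled shTRPV4 and 14.5 in the arrays labelled shGFP, near the offset (0.63, 95% interval −0.08 to 1.34). The other Flt4 probe set overlapped between the groups and differed by 0.12 (limma adjusted p = 0.58). Tek, the angiopoietin receptor, averaged 8.79 in the arrays labelled shTRPV4 and 13.7 in the arrays labelled shGFP, below the offset in both.

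Among other angiogenic factors and inhibitors, 1 gene rose, 5 fell and 27 of 33 did not pass (list median −0.17, against 0.02 over all genes). The share called was 18.2%, against 11.4% of all genes. Thbs1, a thrombospondin that inhibits vessel growth, read 343.3 and 320.8 in the arrays labelled shTRPV4, against 1598 and 1445 in the arrays labelled shGFP (−2.10, SE 0.10, limma adjusted p = 0.015). Thbs2, its relative with the same activity, fell by 0.72 on its brighter probe set, a call lost with an offset of 1, as were those of Angptl4 and Hgf. Those that fell also included 2 growth factors, Pdgfa, a ligand of the PDGF receptors (−1.33), and Fgf7, which acts on epithelium (−1.15). Angptl4, an inhibitor of lipoprotein lipase, fell as well (−0.54 on its brighter probe set). Hgf, the ligand of the receptor Met, rose by 0.48 on its brighter probe set (limma adjusted p = 0.0495) and differed by −0.02 on the other. The list thus held members of both kinds, factors and inhibitors, among those that fell. Without normalization, which ended the calls of Angptl4 and Hgf, 0 rose and 4 fell (limma, 14 genes at an unadjusted p under 0.05), and after median centring 2 rose and 4 fell.

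Hypoxia-inducible factors, which induce Vegfa in low oxygen, and their regulators and target genes were listed as well: 3 rose, 1 fell and 19 of 23 did not pass, with a list median of 0.20. In this list 17.4% were called, against 11.4% of all genes, whose median was 0.02. Hif1a, the oxygen-regulated factor subunit, read 3193 and 3170 in the arrays labelled shTRPV4, against 5302 and 4986 in the arrays labelled shGFP (−0.71, SE 0.08, limma adjusted p = 0.027). It was lower on 3 of its 4 probe sets. Car9, a carbonic anhydrase and hypoxia target, read 225.7 and 247.0 in the arrays labelled shTRPV4, against 32.2 and 39.3 in the arrays labelled shGFP (2.34, SE 0.10, limma adjusted p = 0.015). The inhibitor of mTORC1 signalling Ddit4 (0.55) and the histone demethylase Kdm3a (0.48, limma adjusted p = 0.049) rose too. With an offset of 1 the calls of Hif1a, Ddit4 and Kdm3a were lost. The RNA of the factor subunit had the opposite sign to that of the targets that passed, and its protein is not measured by these arrays. Without normalization 2 were called higher and 1 lower, and after median centring 8 and 1.

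**Figure D3:**
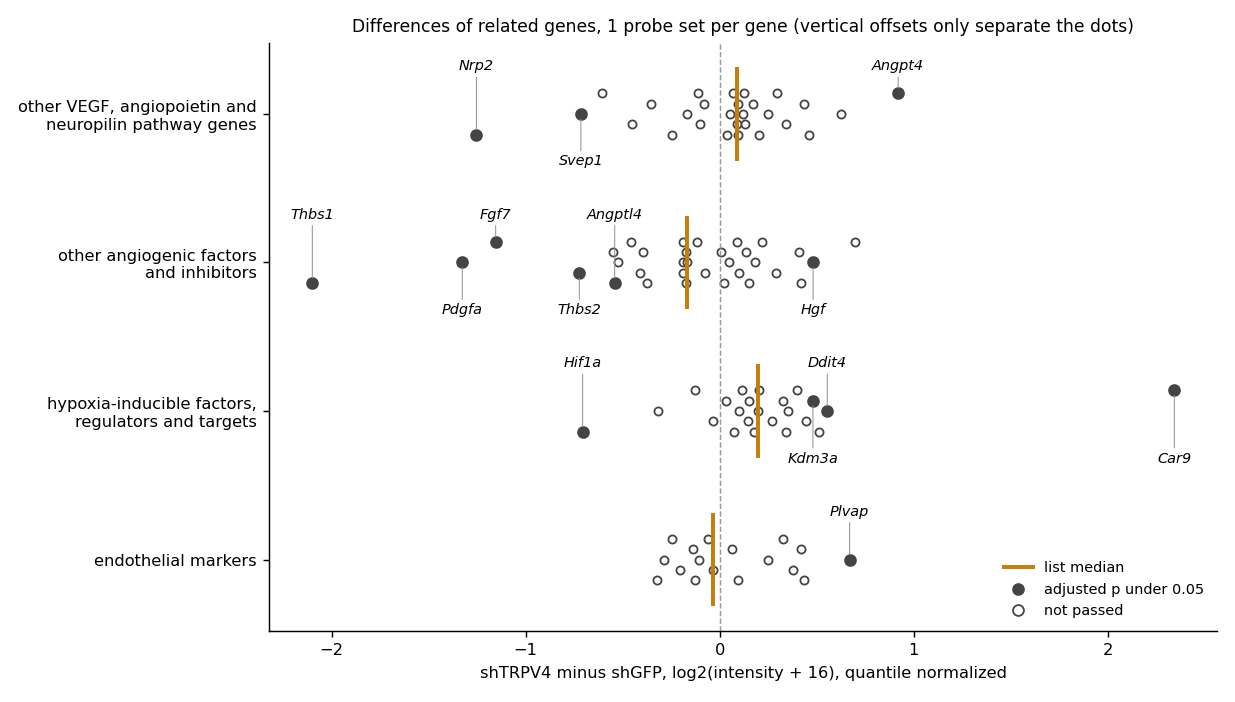
Difference of each measured gene of 4 lists, shTRPV4 minus shGFP, as quantile-normalized log2(intensity + 16) (horizontal axis), with 1 probe set per gene; filled dots have an adjusted p under 0.05 and carry their gene name, and bars are list medians. Nrp2 and Thbs1 lie far left of 0, Angpt4 and Car9 far right, and the endothelial markers lie around 0 except Plvap at 0.67.

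Markers of other cells were set beside these values. Of 17 endothelial markers, 1 rose (Plvap, a protein of fenestrated capillaries, 0.67, limma adjusted p = 0.022, lost with an offset of 1), 0 fell, and 7 averaged under 16 in both groups. Most endothelial markers were dim, and Plvap and Egfl7 alone of the 17 lay above the median level. Pecam1 averaged 14.3 in the arrays labelled shTRPV4 and 6.71 in the arrays labelled shGFP. Vwf averaged 3.89 in the arrays labelled shTRPV4 and 5.58 in the arrays labelled shGFP, and Cdh5 averaged 39.5 in the arrays labelled shTRPV4 and 29.7 in the arrays labelled shGFP. Summed over the list, intensities were 1002 to 1064 in the arrays labelled shTRPV4 and 830.2 to 943.1 in the arrays labelled shGFP. Plvap alone made up a large part of these sums, with 531.7 and 548.2 in the arrays labelled shTRPV4 against 330.7 and 364.3 in the arrays labelled shGFP. The list median was −0.04, and 8 of the 17 differences were positive. Of the 13 markers of preadipocytes and fibroblasts, 8 fell and 0 rose (list median −1.04), with sums of 50077 to 50620 in the arrays labelled shTRPV4 and 64906 to 66923 in the arrays labelled shGFP, and none read exactly 1 on any array. The preadipocyte markers with the largest falls were Sfrp2, a Wnt modulator (−2.35), the proteoglycans Lum (−2.28) and Dcn (−1.68), the receptor Pdgfra (−1.25), Dlk1 (−1.24) and Cd34 (−1.07).

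Of 12 fat cell markers, 4 rose, 1 fell and 7 did not pass, with sums of 69334 to 72289 in the arrays labelled shTRPV4 and 59959 to 61306 in the arrays labelled shGFP. Retn, which encodes resistin (1.90), the glucose transporter Slc2a4 (1.16), and the regulators Cebpa (0.88) and Pparg (0.45) rose, and Lep, which encodes leptin, fell (−1.77). With an offset of 1 the calls of Slc2a4, Cebpa and Pparg were lost (limma adjusted p from 0.054 to 0.088), and that of Pparg also without normalization. Of 11 macrophage markers, 1 rose (Cd68, 1.49) and 3 fell (Lyz2, −1.89; Cd14, −0.96; Csf1r, −0.85), all lost with an offset of 1, with sums of 660.2 to 704.2 in the arrays labelled shTRPV4 and 993.1 to 1089 in the arrays labelled shGFP. The other Csf1r probe sets differed by −0.13 and −0.06 and did not pass (limma adjusted p = 0.78 and 0.83). The share called was 5.88% of endothelial, 61.5% of preadipocyte, 41.7% of fat cell and 36.4% of macrophage markers, against 11.4% of all genes. The part of these marker shifts in the differences of Vegfc, Vegfa, Nrp1 and the other members was not tested. The cultures came from 1 preadipocyte line, so the endothelial and macrophage lists are not read as counts of such cells. For preadipocytes and fat cells, fewer cells of a stage and less RNA per cell cannot be told apart in whole cultures.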

How the data were processed

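Total RNA of 4 samples was turned into biotinylated cRNA for Affymetrix arrays, per the labels' protocols. The authors deposited 1 linear intensity per probe set and array; how probes were summarised, corrected for background and scaled is not given in the sources used here. Precision is limited by having 2 arrays in each group.

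Groups came from the sample titles. Intensities were taken as log2(intensity + 16). The 4 array medians spanned 0.138 on that scale, above the limit of 0.1, so the arrays were quantile normalized. The comparison, shTRPV4 minus shGFP, was fitted over all 22626 probe sets in R 4.3.3 by limma 3.58.1 (lmFit, then eBayes with no intensity trend, 2 residual and 1.80 prior degrees of freedom), and p-values were adjusted over all of them. A check on simulated data required only that median estimates lay near the known changes, and it did not count false calls. Genes were named from the platform annotation: 20380 probe sets had 1 symbol, 691 several and 1555 were unnamed here. All 8 member gene IDs matched the RefSeq table of GRCm38.p6.

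Members, gene lists and rules were chosen with earlier results of these data known. The text names every member probe set, Trpv4, up to 6 called genes per list, and the 3 genes most like the member with the smallest p. Pathway genes, further probe sets of Hgf, Csf1r, Vegfd and Flt4 and defining markers that did not pass were added after their values were seen. Lists held 14 to 35 genes except macrophages with 11, and those with no single-gene probe set were not analysed here. Alternatives were 2 other offsets (1 and 64), 2 other scalings, 2 filters on dim probe sets (under the 25th and 50th percentile), an intensity trend, a replicate block and each array left out. The labels name no batch.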

Additional observations from a re-analysis of the deposited data

How the results depend on the processing

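Over 12 alternatives, 149 of 150 differences of the 13 member probe sets kept their sign. The exception was Kdr, at −0.16, which ranged from −0.501 without replicate 2 of shGFP to 0.181 without replicate 1. The filters, trend and block cannot change a difference, so they do not test its sign. Trpv4, no member, at 0.32, ranged from −0.093 without replicate 1 of shGFP to 0.727 without replicate 2. With an offset of 1, limma called 0 members higher (9 members at an unadjusted p under 0.05 in either direction) and Vegfc kept its call (limma adjusted p = 0.0468, over a range of 2.86e-04 to 0.20). The labels give same-numbered arrays no shared origin. Their deviations from the group means correlated at 0.119 over all probe sets and at 0.269 over those above the median level, with 2 pairs, too few to take the numbers as pairs. With the number as a block, limma called 0 members higher and 0 lower (9 at an unadjusted p under 0.05), and 0 genes in either direction in the pathway (8), angiogenic (15) and hypoxia (11) lists. The block also called 0 of all 22626 probe sets (limma, 6858 at an unadjusted p under 0.05, against 6928 in the main fit). With 1 array left out, 1 group holds a single array, too few for any call. Both kinds of fit have fewer residual degrees of freedom by construction. Flt1 1419300_at passed in 4 alternatives (limma adjusted p from 0.019 to 0.033) and Vegfa 1420909_at in 1 (0.049, probe sets under the 50th percentile left out).

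List counts that moved by over 1.5 times were as follows, against 1 higher and 2 lower (pathway), 1 and 5 (angiogenic) and 3 and 1 (hypoxia). Higher pathway genes were 2 with either filter and with the trend, and lower ones 4 with the filter at the 25th percentile. Higher angiogenic genes were 0 with an offset of 1 and with the values as deposited, 2 with median centring, 3 with an offset of 64 and the filter at the 25th percentile, 4 with the trend and 5 with the filter at the 50th; lower ones were 3 with an offset of 1 and 9 with the filter at the 50th percentile. Higher hypoxia genes were 1 with an offset of 1, 7 with the filter at the 25th percentile, 8 with an offset of 64, median centring or the trend, and 9 with the filter at the 50th; lower ones were 0 with an offset of 1 and 2 with the filter at the 50th. Among the marker lists, an offset of 1 left 1 adipocyte marker higher (against 4), 0 endothelial markers higher (against 1) and 0 macrophage markers in either direction (against 1 higher and 3 lower). Median centring called 2 endothelial markers higher. The filter at the 50th percentile, which removes dim markers, left 0 adipocyte markers lower (against 1) and 0 macrophage markers higher and 1 lower. Over all probe sets, 180 higher and 426 lower were called with an offset of 1, against 1027 and 1213. An offset of 64 called 2130 and 1986, and the trend 2170 and 1980. The filter at the 25th percentile called 2084 and 1975 of 16969, and that at the 50th 2642 and 2232 of 11313. Of 31 called genes of the lists, 15 calls were lost with an offset of 1. The values as deposited lost 4 (Angptl4, Hgf, Kdm3a and Pparg), median centring 1 (Angptl4) and the block 31. With other offsets or scalings, or an array left out, 0 changed sign. The causes were not tested. For Kdr and Tek, signal near the low end limits what could be seen.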
